A study of Mus musculus with 9 samples.

Results

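The 29 genes described here encode the enzymes, regulators and carriers that make, sense and move cholesterol. They were followed in ovaries of TAF4b knockout, TAF4b heterozygote and Wild type mice aged 3 weeks, with 3 mice per genotype and 1 array per mouse. The genes were taken by symbol, from a list drawn up with earlier results of these data known, among the 22461 genes with a symbol in the deposited tables, and all 29 were found. Of these, 18 are enzymes of cholesterol synthesis, 5 are regulators, and 6 act in transport, storage and release. A gene with several probe sets was read from the probe set with the highest mean intensity, which applied to Idi1 and Fdft1 with 2 probe sets each. Sc4mol is the symbol of the files for the gene now called Msmo1. TAF4b is found mainly in the gonads as a subunit of TFIID, which binds core promoters to start transcription, and the comparisons ask how the cholesterol genes differ between the genotypes. The sources used here do not state the strain, the litters or the design of the TAF4b allele.

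Cells build cholesterol from acetyl-CoA through mevalonate, isoprenoids, squalene and a series of sterol intermediates. When sterols in the endoplasmic reticulum are low, SCAP escorts the SREBP transcription factors to the Golgi, where they are cleaved and freed to activate the genes of synthesis and uptake, and when sterols are high the INSIG proteins hold SCAP back. In the ovary, cholesterol is the starting material of steroid hormones, and theca, luteal and interstitial cells also take it up from lipoproteins and store it as esters in lipid droplets.

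Values are linear intensities, and differences are given in log2 units from limma fitted on all 9 arrays, with Benjamini-Hochberg adjustment over 25100 probe sets with a symbol and a threshold of 0.05. Taf4b itself had intensities of 332, 626 and 403 in knockouts 1 to 3, 456, 595 and 574 in heterozygotes, and 494, 635 and 723 in wild type (log2 difference, knockout minus wild type, -0.48, SE 0.23, adjusted p = 0.514, limma). Taf4b therefore goes against the label of the array labelled knockout 2, and the sources used here do not state whether its probes lie inside the deleted part. Heterozygote 1 stood apart from the other arrays, with correlations across probe sets of 0.984 to 0.988, against values up to 0.998 between other arrays. Median intensities were between 123.7 and 126.89, and precision is limited by the number of arrays. Granulosa and oocyte markers were measured in every array, with lowest intensities of 135 and 58.0 for any marker of these lists. The lowest oocyte value lies below the median of every array. In whole ovaries, fewer cells of a type and less RNA per cell cannot be told apart.

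None of the 29 cholesterol genes differed between genotypes at the adjusted threshold, in any of the 3 comparisons. Their differences were small, and most pointed upwards in the knockout. Across all tested probe sets, 0.0757% were called for knockout against wild type, 0.0% for heterozygote against wild type and 0.0239% for knockout against heterozygote, so few calls were made anywhere. Between knockout and wild type, 24 of 29 genes were higher in the knockout, with a median log2 difference of 0.076, while 48.4% of all genes were higher and their median was -0.004. Without the array labelled knockout 2 the median of the 29 genes was 0.037, with 18 of 29 higher, and without knockout 3 it was 0.161, with 27 of 29 higher.

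At an unadjusted p under 0.05, 4 of the 29 genes were higher in knockout than wild type ovaries (Hmgcs1, Srebf2, Soat1 and Npc2) and 0 were lower, where 4.89% of all probe sets were higher and 5.77% lower. All 3 knockout arrays lay above all 3 wild-type arrays for 6 genes (20.7%), namely Hmgcs1, Dhcr7, Srebf2, Soat1, Npc2 and Abca1, where 6.51% of all probe sets did so. They lay below for 0 genes, where 7.77% of all probe sets did so. By role, the median difference was 0.057 for the enzymes (14 of 18 higher), 0.127 for the regulators (4 of 5 higher) and 0.201 for transport, storage and release (6 of 6 higher).

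**Figure D1:**
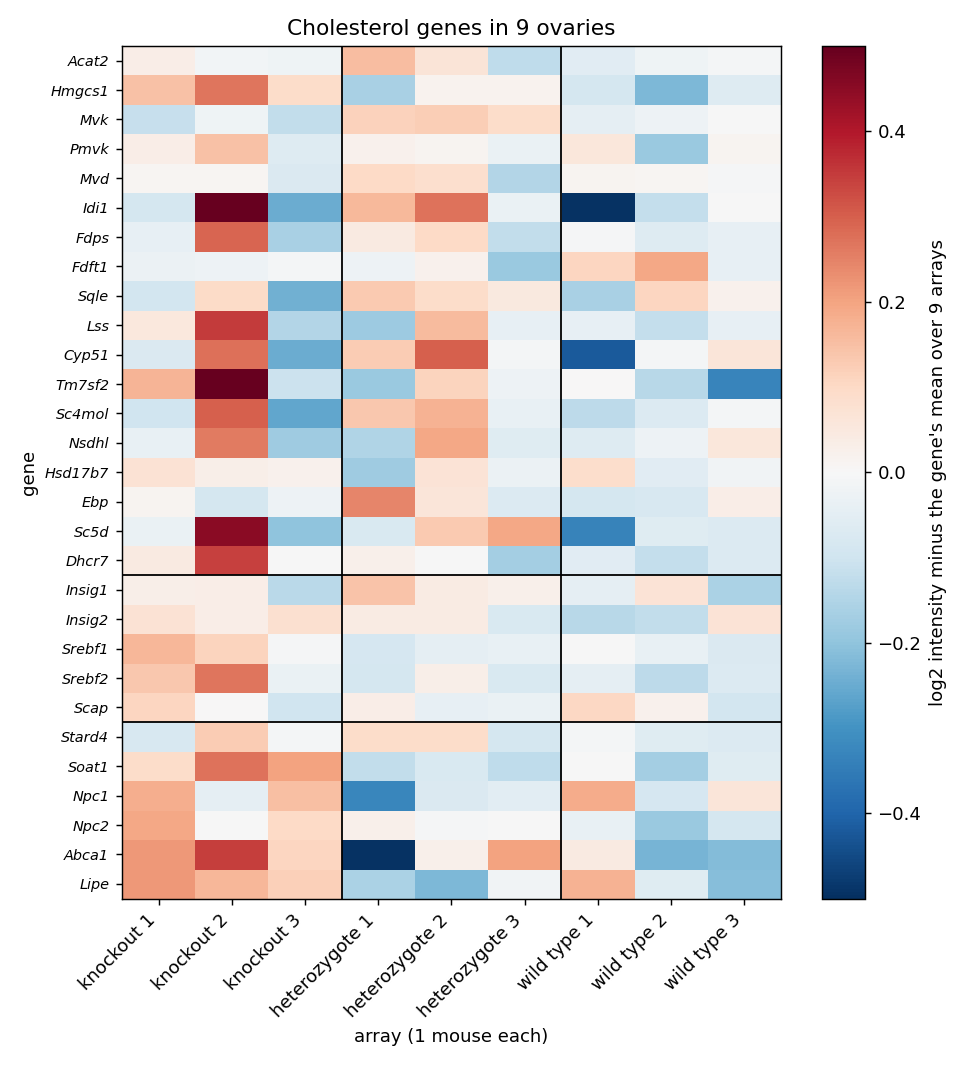
Log2 intensity of the 29 genes (rows) in each of the 9 arrays (columns), as the difference from the gene's mean over the 9 arrays, with colours limited to ±0.5. Horizontal lines separate synthesis enzymes, regulators, and transport, storage and release, and vertical lines separate the genotypes; the array labelled knockout 2 holds the highest value for 10 of 18 enzymes.

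Between heterozygote and wild type, the differences ran from -0.20 (Npc1, SE 0.10) to 0.34 (Idi1, SE 0.21), with Cyp51 at 0.26 (SE 0.16) and Sc5d at 0.24 (SE 0.16). Without wild type 1, Idi1 stood at 0.19, Cyp51 at 0.11 and Sc5d at 0.15, and without heterozygote 1 Npc1 stood at -0.12. The median was 0.045, with 22 of 29 genes higher in the heterozygote, against 50.6% of all genes with a median of 0.001. Without heterozygote 2 the median was 0.036, with 16 of 29 genes higher. Only Mvk had an unadjusted p under 0.05 (higher), where 2.71% of all probe sets were higher and 3.04% lower. The heterozygote arrays lay above all wild-type arrays for Mvk and Npc2 and below for 0 genes, where 4.13% and 6.43% of all probe sets did so. Medians by role were 0.07 for the enzymes (16 of 18 higher), 0.037 for the regulators (3 of 5) and 0.007 for transport, storage and release (3 of 6).

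Between knockout and heterozygote, the enzymes were balanced while the transport genes were mostly higher in the knockout. The median over the 29 genes was 0.033 with 18 higher, against 45.7% of all genes with a median of -0.012. Hmgcs1, Srebf1, Soat1, Npc1 and Lipe were higher and Mvk was lower at an unadjusted p under 0.05, and for the same 6 genes the 3 knockout arrays lay entirely on that side of the heterozygote arrays. Among all probe sets, 7.71% were higher and 6.57% lower at that p, and 8.08% lay entirely above and 8.12% entirely below. By role the medians were 0.004 for the enzymes (9 of 18 higher), 0.061 for the regulators (4 of 5) and 0.271 for transport, storage and release (5 of 6). Without the array labelled knockout 2 they were -0.065 for the enzymes (5 of 18) and 0.253 for transport, storage and release (5 of 6), and without heterozygote 1 the median of transport, storage and release was 0.134 (6 of 6). The comparisons share arrays, so their values are not independent of each other.

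**Figure D2:**
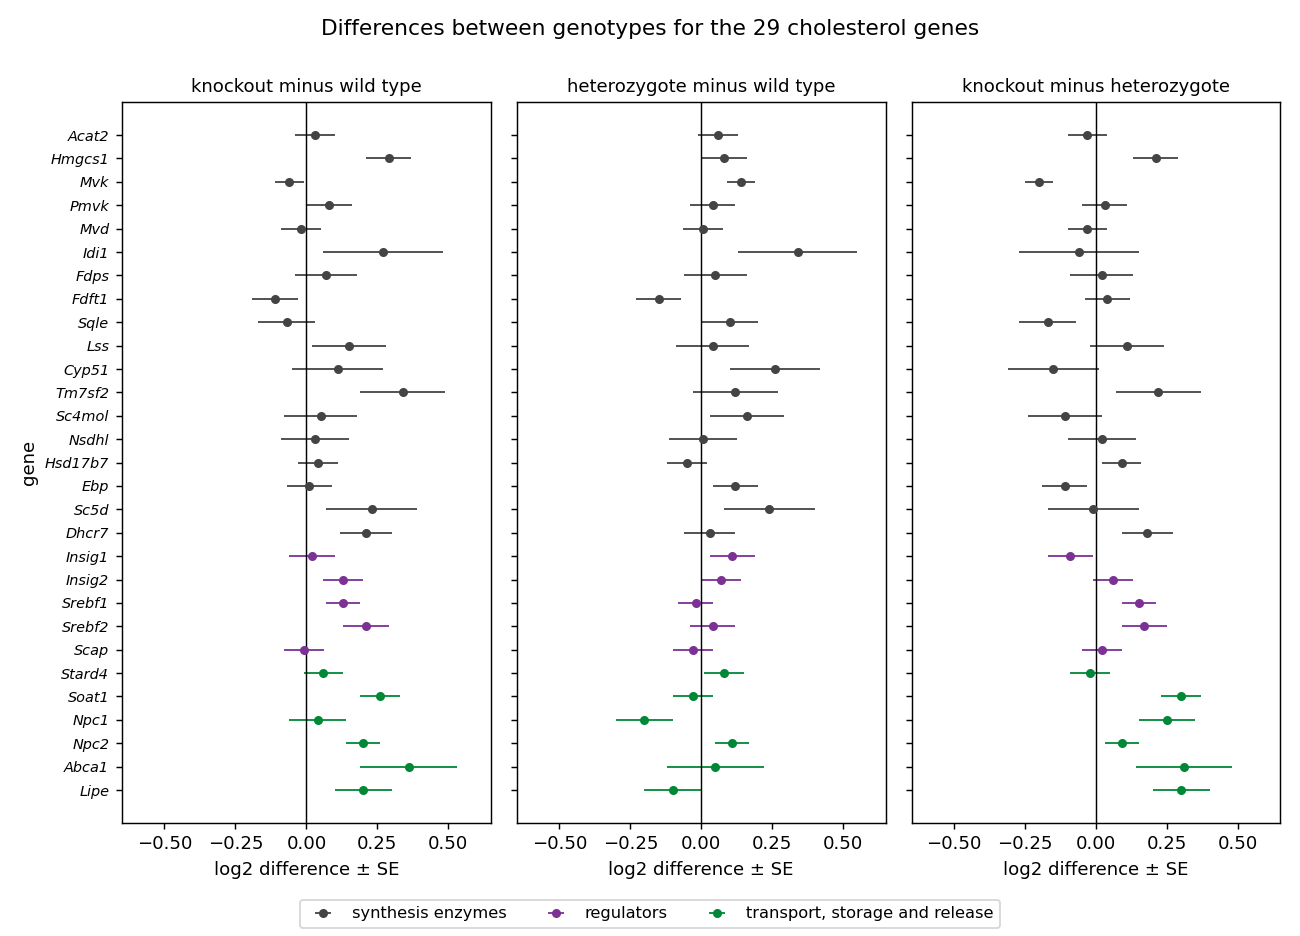
Log2 difference ± SE (limma, n = 3 mice per genotype) for each of the 29 genes, in a panel each for knockout minus wild type, heterozygote minus wild type and knockout minus heterozygote, coloured by role. Most points lie within 0.3 of 0, and Abca1, Tm7sf2 and Hmgcs1 have the highest values in the first panel, 0.36, 0.34 and 0.29.

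Hmgcs1 encodes the synthase that joins acetyl-CoA to acetoacetyl-CoA, the step before mevalonate. Its intensity was 1697, 1845 and 1636 in knockouts 1 to 3, 1370, 1554 and 1554 in heterozygotes, and 1445, 1315 and 1466 in wild type. All knockout arrays were above all other arrays, and heterozygotes overlapped wild type. Hmgcs1 stood at 0.29 in knockout against wild type (SE 0.08, unadjusted p = 0.00403, adjusted p = 0.22, limma), a fold of 1.23, and at 0.21 against heterozygotes (SE 0.08, adjusted p = 0.28, limma). Without the array labelled knockout 2 the difference from wild type was 0.24.

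Acat2, the thiolase that supplies acetoacetyl-CoA, differed by 0.03 between knockout and wild type, with intensities from 574 to 698 over the 9 arrays. The mevalonate kinase gene Mvk behaved unlike Hmgcs1. It read 291, 311 and 290 in knockouts, 342, 344 and 336 in heterozygotes, and 306, 310 and 315 in wild type. The 3 heterozygote arrays were the highest of the series, above both other genotypes. Mvk was at -0.20 in knockout against heterozygote (SE 0.05, adjusted p = 0.18, limma), at 0.14 in heterozygote against wild type (SE 0.05, adjusted p = 0.815, limma) and at -0.06 in knockout against wild type. It was also the steadiest of the 29 genes within genotypes, with a residual SD of 0.04 log2 units (percentile 3.83 among all genes).

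The later mevalonate enzymes Pmvk (phosphomevalonate kinase) and Mvd (mevalonate decarboxylase) stood at 0.08 and -0.02 in knockout against wild type, and at 0.02 and -0.04 without the array labelled knockout 2. Idi1 encodes the isomerase that makes the isoprenoid building block dimethylallyl diphosphate. It read 432, 670 and 387 in knockouts, 513, 554 and 449 in heterozygotes, and 326, 423 and 459 in wild type. The array labelled knockout 2 was the highest and wild type 1 the lowest, and the genotypes overlapped. Idi1 had the widest spread within genotypes of the 29 genes, a residual SD of 0.30 (percentile 97.5 among all genes), so a difference of 0.27 from wild type (SE 0.21) was within that spread. The difference was 0.04 without the array labelled knockout 2 and 0.13 without wild type 1. Its second probe set gave 0.28 (SE 0.22). Fdps, which makes farnesyl diphosphate, stood at 0.07 and was highest (889) in the array labelled knockout 2, without which it stood at -0.07. Fdft1, the squalene synthase gene at the entry to the sterol branch, had lower means in both mutant genotypes, with overlap. It stood at -0.11 in knockout and -0.15 in heterozygote against wild type (SE 0.08 each), and at -0.05 and -0.10 without wild type 2. Its second probe set gave -0.10 with overlap and -0.19 without overlap.

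In the sterol branch, Sqle (squalene epoxidase, a rate-controlling step) read 523, 595 and 471 in knockouts, 609, 593 and 576 in heterozygotes, and 498, 600 and 565 in wild type. Knockouts spanned the lowest and nearly the highest values, and Sqle stood at -0.07 against wild type (SE 0.10), or -0.16 without the array labelled knockout 2. Tm7sf2, a sterol C14 reductase gene, read 228, 287 and 188 in knockouts, 178, 219 and 199 in heterozygotes, and 203, 184 and 161 in wild type. Its difference of 0.34 from wild type (SE 0.15, adjusted p = 0.479, limma) was the highest among the enzymes and was 0.18 without the array labelled knockout 2. Dhcr7, the reductase of the last step to cholesterol, read 405, 498 and 392 in knockouts, 400, 392 and 349 in heterozygotes, and 378, 362 and 375 in wild type. Here all knockouts were above all wild types, with a difference of 0.21 (SE 0.09, adjusted p = 0.486, limma), which was 0.10 without the array labelled knockout 2.

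The other sterol enzymes overlapped between knockout and wild type. Lss (lanosterol synthase) stood at 0.15, Cyp51 (lanosterol demethylase) at 0.11, Sc4mol (C4 methyl oxidase) at 0.05 and Nsdhl (C4 decarboxylation) at 0.03. Hsd17b7 (3-ketosteroid reductase) was at 0.04, Ebp (sterol isomerase) at 0.01 and Sc5d (C5 desaturase) at 0.23. With the array labelled knockout 2 left out, Lss stood at 0.02, Cyp51 at -0.04, Sc4mol at -0.11, Nsdhl at -0.10 and Sc5d at 0.04. Sc4mol ran from 2281 to 3357 in intensity and Sc5d from 832 to 1433. Both extremes of Sc4mol were knockout arrays, knockout 3 the lowest and the array labelled knockout 2 the highest. Against wild type, 16 of 18 enzymes were higher in heterozygotes, with 12 of 18 (median 0.044) without heterozygote 2 and 14 of 18 without wild type 2. Heterozygote 2 was above the 9-array mean of the gene for 17 of 18 enzymes, and for 11122 of all 22461 genes.

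Many of the enzymes had their highest value in 1 array. The array labelled knockout 2 was the highest of the 9 for 10 of 18 enzymes (55.6%) and for 14 of all 29 genes (48.3%), where it was the highest for 10.4% of all genes. The mean log2 deviation of the 18 enzymes from their 9-array means was -0.0, 0.21 and -0.11 in knockouts 1 to 3, 0.02, 0.11 and -0.04 in heterozygotes, and -0.10, -0.06 and -0.03 in wild type. The knockout arrays thus held both the highest and the lowest mean, and knockout 1 lay between. Without the array labelled knockout 2, the median of the enzymes in knockout against wild type was 0.021, with 10 of 18 higher, and without knockout 3 it was 0.145, with 16 of 18 higher. The same array had the highest summed intensity of 7 theca and steroidogenic markers, which was 4083, 10653 and 3783 in knockouts, 3527, 3841 and 7833 in heterozygotes, and 3302, 3056 and 3292 in wild type. Heterozygote 3, with the next highest sum, was the highest array for 0 of 18 enzymes. The part of these cells in the enzyme pattern was not tested.

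Among the regulators, the transcription factor genes Srebf2 and Srebf1 had the smallest p in the comparisons with the knockout, and none of the 5 was called. Srebf2 encodes SREBP2, the SREBP that chiefly drives cholesterol synthesis. It read 808, 886 and 719 in knockouts, 692, 751 and 697 in heterozygotes, and 713, 672 and 702 in wild type. Knockouts were above wild types without overlap, though knockout 3 was close to wild type 1, and they overlapped heterozygotes. The difference from wild type was 0.21 (SE 0.08, unadjusted p = 0.0294, adjusted p = 0.4, limma), and 0.13 without the array labelled knockout 2. Srebf1, whose products chiefly drive fatty acid synthesis, read 488, 470 and 433 in knockouts, 410, 421 and 424 in heterozygotes, and 434, 424 and 413 in wild type. Knockouts were above all heterozygotes (0.15, SE 0.06, adjusted p = 0.303, limma), while knockout 3 lay just below wild type 1 (0.13, SE 0.06, adjusted p = 0.472, limma).

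Insig1, itself a classic SREBP target that closes the feedback loop, read 2056, 2061 and 1834 in knockouts, 2220, 2070 and 2048 in heterozygotes, and 1954, 2111 and 1804 in wild type. The genotypes overlapped, and the difference of knockout from wild type was 0.02 (SE 0.08). Insig2, the second SCAP-holding protein gene, stood at 0.13 (SE 0.07) and Scap at -0.0074 (SE 0.07). Scap ran from 1466 to 1693, with both limits in knockout arrays.

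**Figure D3:**
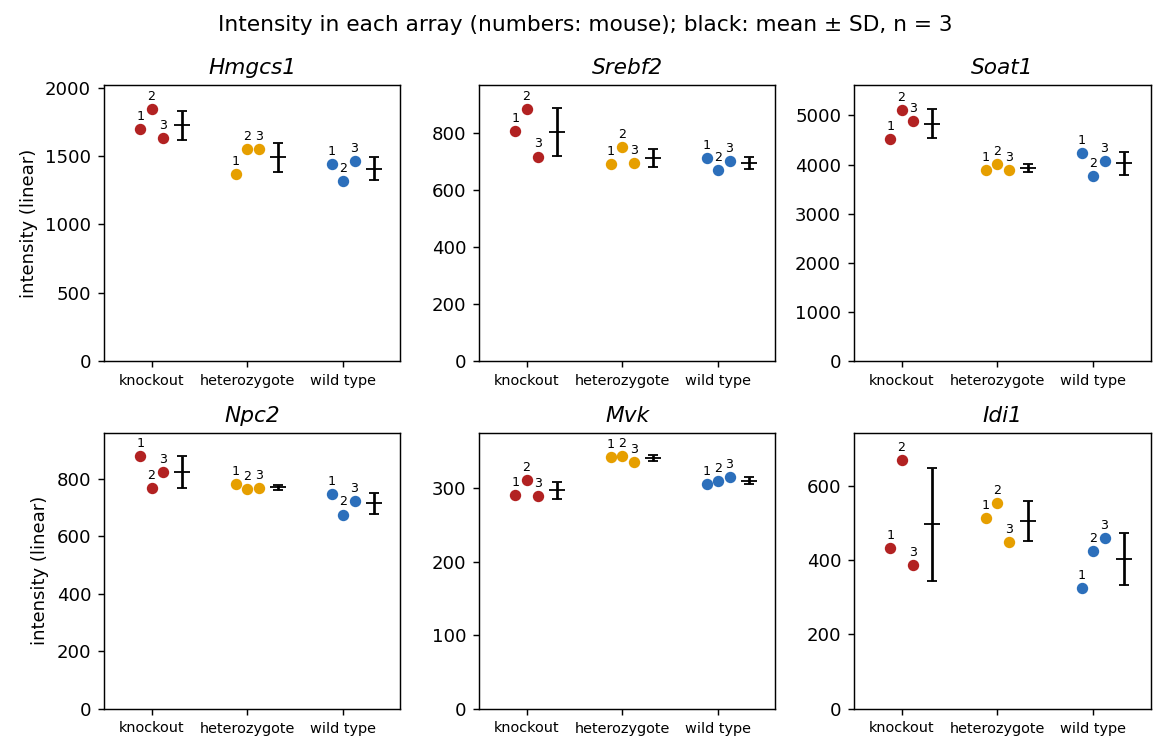
Linear intensity of Hmgcs1, Srebf2, Soat1, Npc2, Mvk and Idi1 in each array, with knockout, heterozygote and wild type from left to right, mice numbered, and black marks for mean ± SD (n = 3). Knockouts lie above wild types for Hmgcs1, Srebf2, Soat1 and Npc2, heterozygotes lie above both other genotypes for Mvk, and all genotypes overlap for Idi1.

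The 6 genes of transport, storage and release were all higher in knockout than wild type ovaries, with a median of 0.201, and the median was 0.212 without the array labelled knockout 2 (5 of 6 higher). Soat1 encodes the enzyme that esterifies cholesterol for storage. It read 4514, 5113 and 4877 in knockouts, 3889, 4020 and 3885 in heterozygotes, and 4233, 3773 and 4063 in wild type. All knockouts exceeded every other array. Soat1 stood at 0.26 against wild type (SE 0.07, adjusted p = 0.203, limma) and at 0.30 against heterozygotes (SE 0.07, adjusted p = 0.149, limma), folds of 1.20 and 1.23, and these were 0.22 and 0.26 without the array labelled knockout 2.

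NPC2 and NPC1 hand cholesterol on from the lysosome. Npc2 read 879, 767 and 824 in knockouts, 781, 766 and 767 in heterozygotes, and 749, 676 and 722 in wild type. Both mutant genotypes lay above all wild types, at 0.20 for knockout (SE 0.06, adjusted p = 0.313, limma) and 0.11 for heterozygote (SE 0.06, adjusted p = 0.815, limma). Here the array labelled knockout 2 was the lowest knockout, and the knockout difference was 0.25 without it. Npc1 read 986, 843 and 964 in knockouts, 694, 826 and 839 in heterozygotes, and 988, 821 and 907 in wild type. Knockouts were above heterozygotes (0.25, SE 0.10, adjusted p = 0.327, limma) but not wild types (0.04, SE 0.10). Heterozygote 1 was the lowest array, and without it the difference of knockout from heterozygote was 0.16.

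Abca1, the pump that exports cholesterol to apolipoproteins, averaged 1218 ± 101 in knockouts, 999 ± 235 in heterozygotes and 953 ± 105 in wild type (SD, n = 3 each). Its 3 knockout arrays (1210, 1322 and 1121) were above the wild types (1074, 887 and 897), with a difference of 0.36 (SE 0.17, adjusted p = 0.494, limma), and heterozygote 1 was far below the other heterozygotes (740, against 1059 and 1198). Lipe, the hormone-sensitive lipase gene that frees cholesterol and fatty acids from droplets, read 337, 325 and 315 in knockouts, 260, 248 and 286 in heterozygotes, and 327, 278 and 250 in wild type. Knockouts were above all heterozygotes (0.30, SE 0.10, adjusted p = 0.247, limma) and overlapped wild type (0.20, SE 0.10, adjusted p = 0.518, limma). Stard4, a soluble sterol carrier and SREBP target, stood at 0.06 (SE 0.07), with intensities from 286 to 332.

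Markers of macrophages and adipocytes were also higher in the knockout arrays. Summed over 10 macrophage markers, intensity was 2201, 1801 and 2518 in knockouts, 1499, 1362 and 1482 in heterozygotes, and 1603, 1448 and 1520 in wild type, and 10 of 10 were higher in knockout than wild type (median 0.41). The array labelled knockout 2 had the lowest macrophage sum of the knockouts, as it had the lowest Npc2 value, but the highest Soat1 and Abca1 values. The sum over 9 adipocyte markers was 3557, 3675 and 3163 in knockouts, 2114, 1234 and 1437 in heterozygotes, and 2697, 2545 and 2403 in wild type, with 8 of 9 higher in knockout than wild type (median 0.29). Lipe, a gene that adipocytes express strongly, was lowest in heterozygote 2 (248), the array with the lowest adipocyte sum. Other arrays did not follow this order. Wild type 3 read 250 for Lipe with a sum of 2403. Heterozygote 3 read 286 with a sum of 1437, and heterozygote 1 read 260 with a sum of 2114. The lowest marker intensities in these lists were 45.8 and 23.2, well below the array medians of 123.7 to 126.89. Some of these markers may thus be near background. The part of these cells in the results for Soat1, Npc2, Abca1 and Lipe was not tested. Of the other lists, theca and steroidogenic (7 of 7 higher in knockout than wild type, median 0.75), surface epithelium (6 of 6, 0.62), fibroblast stroma (6 of 6, 0.27) and endothelial markers (5 of 5, 0.24) stood higher, and oocyte (3 of 10, -0.20) and granulosa markers (1 of 8, -0.14) lower. The oocyte markers no longer stood lower once the array labelled knockout 2 was left out (5 of 10 higher, median 0.01), and then the theca and steroidogenic median was 0.29 (7 of 7 higher) and the granulosa median was -0.27 (1 of 8 higher).

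Hmgcs1 and Srebf2 varied together over the 9 arrays. Hmgcs1 was set against 6 other members that stand for successive parts of the pathway, with exact permutation p-values (two-sided) adjusted over the 6. Pearson's r with Srebf2 was 0.89 (exact p = 0.000524, adjusted p = 0.00314) and Spearman's rho was 0.89 (exact adjusted p = 0.0148). Without the array labelled knockout 2 and wild type 2, the arrays farthest from the median of Hmgcs1, r was 0.74 (exact adjusted p = 0.305), so the relation no longer passed without those arrays. With genotype means removed it was 0.73 (exact adjusted p = 0.334), and without the array labelled knockout 2 and heterozygote 1 it was 0.79 (exact adjusted p = 0.207). The relations of Hmgcs1 with Idi1 (r = 0.42, rho = 0.29), Stard4 (0.24), Cyp51 (0.20), Insig1 (-0.19) and Sqle (-0.25) did not pass (exact adjusted p = 0.63 for each r).

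Idi1 and Cyp51 tracked each other more closely. The other 15 pairs of these 7 genes were added after the values had been seen, with adjustment over all 21 pairs. Cyp51 read 334, 425 and 296 in knockouts, 384, 432 and 349 in heterozygotes, and 263, 349 and 367 in wild type, and its r with Idi1 was 0.95 (exact p = 0.000149, adjusted p = 0.00313) with a rho of 0.95 (exact adjusted p = 0.00533). It was 0.97 without the array labelled knockout 2 and wild type 1 (exact adjusted p = 0.025) and 0.99 without the array labelled knockout 2 and heterozygote 1 (exact adjusted p = 0.0167). With genotype means removed it was 0.96 (exact p = 0.00463, adjusted p = 0.0972). Pairings were then permuted only within genotypes, and this p is the smallest that such a permutation can give. With adjustment over 21 pairs a single pair could not pass, so this setting cannot decide on the relation. Sqle and Cyp51 gave r = 0.83 (exact adjusted p = 0.0358) and rho = 0.73 (exact adjusted p = 0.164), and r was 0.58 without knockout 3 and wild type 1 (exact adjusted p = 0.486), where it no longer passed. Insig1 and Sqle passed by rank alone, with rho = 0.85 (exact adjusted p = 0.0425) and r = 0.66 (exact adjusted p = 0.191). Idi1 and Cyp51 both had their lowest value in wild type 1, while Hmgcs1 had its lowest in wild type 2.

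**Figure D4:**
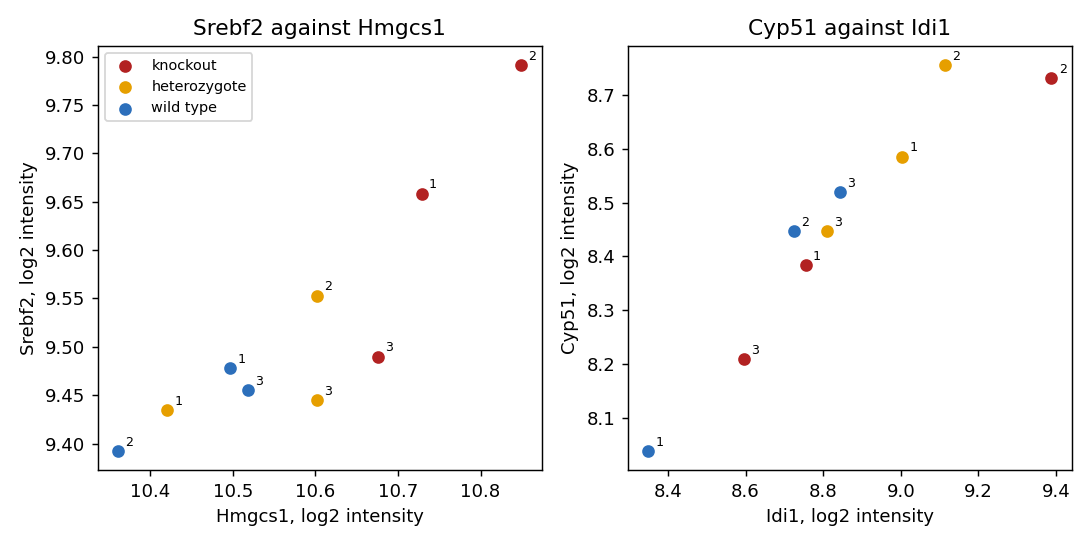
Log2 intensity of Srebf2 against Hmgcs1 (left) and of Cyp51 against Idi1 (right), 1 point per array, coloured by genotype and numbered by mouse. In the left panel (r = 0.89) the knockouts lie to the upper right; in the right panel (r = 0.95) the genotypes are mixed along the line.

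The promoters of these 4 genes are shown because the pairs varied together across arrays. The sequences are from RefSeq (GRCm38.p6), 300 bases each from 250 bases before the start site, read 5′ to 3′ on the strand of the gene. Capitals mark the sterol regulatory element TCACNCCAC, which SREBPs are known to bind, and CCAAT boxes on either strand (CCAAT or ATTGG), the sites of NF-Y, a known partner of SREBPs. Hmgcs1 is at chr13:119690101-119690400 on the plus strand, Srebf2 at chr15:82147019-82147318 (plus), Idi1 at chr13:8885356-8885655 (plus) and Cyp51 at chr5:4104648-4104947 (minus).
Hmgcs1: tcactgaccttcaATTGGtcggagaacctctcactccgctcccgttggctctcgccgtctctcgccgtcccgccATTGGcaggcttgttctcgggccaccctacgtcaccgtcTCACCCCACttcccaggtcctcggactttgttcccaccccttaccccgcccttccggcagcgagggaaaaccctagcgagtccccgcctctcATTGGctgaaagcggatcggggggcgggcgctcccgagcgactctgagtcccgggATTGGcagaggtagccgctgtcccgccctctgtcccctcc
Srebf2: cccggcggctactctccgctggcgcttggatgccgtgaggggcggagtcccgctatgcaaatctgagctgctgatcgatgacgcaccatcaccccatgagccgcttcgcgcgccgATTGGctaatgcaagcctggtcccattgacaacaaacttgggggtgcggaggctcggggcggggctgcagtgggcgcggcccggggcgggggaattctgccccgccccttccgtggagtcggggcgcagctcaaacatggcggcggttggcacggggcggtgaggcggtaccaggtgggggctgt
Idi1: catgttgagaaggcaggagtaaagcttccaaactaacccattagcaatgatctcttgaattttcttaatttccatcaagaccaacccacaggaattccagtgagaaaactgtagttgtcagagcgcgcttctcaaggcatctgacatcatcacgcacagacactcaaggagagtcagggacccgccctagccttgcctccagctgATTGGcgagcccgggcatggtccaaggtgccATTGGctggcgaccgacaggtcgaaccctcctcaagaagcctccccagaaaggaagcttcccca
Cyp51: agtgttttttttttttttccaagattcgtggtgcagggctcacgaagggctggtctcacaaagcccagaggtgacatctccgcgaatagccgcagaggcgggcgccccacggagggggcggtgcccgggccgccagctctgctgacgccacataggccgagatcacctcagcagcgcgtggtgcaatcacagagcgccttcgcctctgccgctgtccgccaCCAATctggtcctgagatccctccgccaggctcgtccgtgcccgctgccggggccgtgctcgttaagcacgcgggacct

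The Hmgcs1 window held 1 sterol regulatory element by these letters, 137 bases before the start site, and 4 CCAAT boxes, at 237, 176 and 45 bases before the start site and 10 bases after it. Idi1 held 2 CCAAT boxes, 45 and 14 bases before the start site, Srebf2 held 1 at 135 and Cyp51 held 1 at 29. Promoters were found in the RefSeq table for 24 of the 29 genes, and the genes not matched were Fdps, Fdft1, Sqle, Npc1 and Stard4. TCACNCCAC, searched on both strands, was in a promoter of 1 of 24 members (Hmgcs1) and of 1.44% of 27025 genes. CCAAT was in 20 of 24 (83.3%) and in 41.1% of all genes, and the Sp1 box GGGCGG in 23 of 24 (95.8%) and in 38.2% of all genes. A gene counted where any of its promoters matched. The 27025 genes were not limited to genes expressed in the ovary or matched in base composition, and what these gaps rest on was not tested. Matches of different motifs were counted separately, also where they overlapped, and a match describes the letters only. Variants of the sterol regulatory element with other letters were not searched, so a window without a match may still hold one.

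The genes whose pattern over the 9 arrays was most like that of Hmgcs1, among 16668 genes ranked by Pearson's r, were Galnt7 (0.962), Adhfe1 (0.959), Vps28 (0.954), Bcl2l2 (0.954), Enpp6 (0.953), Vldlr (0.952), Acsbg1 (0.952) and Ctnna1 (0.949). Galnt7 encodes a glycosyltransferase, Adhfe1 a mitochondrial alcohol dehydrogenase, Vldlr a lipoprotein receptor and Acsbg1 an acyl-CoA synthetase. The 29 genes themselves were left out of this ranking.

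Of 34 other cholesterol genes, covering receptors, lipoproteins, sterol sensors, oxysterol enzymes and carriers, 0 were called in any comparison. Their medians were 0.035 for knockout minus wild type (22 of 34 higher), 0.007 for heterozygote minus wild type (19 of 34) and 0.035 for knockout minus heterozygote (21 of 34). The lowest p in knockout against wild type belonged to Vldlr, Plin2 and Apoe. Vldlr, the very low density lipoprotein receptor gene, read 1011, 1137 and 1018 in knockouts, 757, 848 and 877 in heterozygotes, and 786, 769 and 877 in wild type, so that all knockouts exceeded every other array (0.38, SE 0.08, adjusted p = 0.147, limma). Plin2, which coats lipid droplets, read 1976, 1614 and 2071 in knockouts, 1508, 1500 and 1368 in heterozygotes, and 1577, 1421 and 1356 in wild type, again above every other array (0.37, SE 0.10, adjusted p = 0.244, limma). Apoe, the apolipoprotein E gene that macrophages also express, stood at 0.37 (SE 0.14, adjusted p = 0.377, limma) with overlap. The same 3 genes had the lowest p in knockout against heterozygote. In heterozygote against wild type the lowest p belonged to Cyp7b1, an oxysterol hydroxylase gene, at -0.28, Ch25h, the cholesterol 25-hydroxylase gene, at 0.14, and Lbr, a sterol C14 reductase of the nuclear envelope, at -0.10 (adjusted p = 0.815 for each, limma).

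Within genotypes the median spread of the cholesterol genes was close to that of all genes, with residual SDs of 0.099 and 0.103 log2 units. The enzymes were uneven. Tm7sf2, Sc4mol, Lss and Nsdhl stood at percentiles 92.5, 86.6, 85.3 and 83.4 among all genes. Acat2, Hsd17b7 and Mvd stood at 36.5, 34.8 and 34.3. Besides Idi1, the widest were Abca1 (0.24), Sc5d (0.23) and Cyp51 (0.23), and the narrowest after Mvk were Srebf1 (0.06), Soat1 (0.07) and Npc2 (0.07).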

How the data were processed

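Ovarian RNA (Trizol, 300 ng per mouse, per the labels) was measured on GeneChip Mouse Gene 1.0 ST arrays. The authors normalized the intensity values by RMA-Sketch (Affymetrix Expression Console 1.1), per the design text. The deposited intensity values are linear. The authors also deposited 3 comparison tables with, per the file headers, a ratio (fold) of group means and a p-value per probe set, and their intensities equal those of the value table in all 28266 probe sets (0 differing). Their fold has wild type on top, or the heterozygote where it is compared with the knockout. Its annotation release was not given in the sources used.

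Log2 values of all 9 arrays were fitted with genotype means in limma 3.58.1 (R 4.3.3, lmFit and eBayes), with Benjamini-Hochberg adjustment over the 25100 probe sets with a symbol. The fit was checked on simulated data for knockout minus wild type. It recovered 30.8% of 1.25-fold, 74% of 1.5-fold and 95.6% of 2-fold changes, and 5.77% of its calls were false. The simulated data held many more changed probe sets than the 19 called in the real data, which makes the adjusted threshold easier to pass. Their noise was independent and normal, with no array that stood apart. The recovered shares may therefore be too high for the real data. Correlations used exact permutation of pairings (scipy 1.17.1). Samples were grouped by the genotype label, all value columns were mapped to a sample, and each mouse is 1 sample. The same numbers occur in each genotype, but no label ties them to a litter, batch or day.

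The cholesterol genes, their roles, the marker lists and the other pathway lists were chosen with earlier results of these data known. By rule, values in every array are given for the members with the 10 smallest unadjusted p in any comparison and for Hmgcs1, Sqle, Insig1, Srebf1 and Srebf2, and for other lists the genes called, or the 3 with the smallest p in each comparison. Idi1, Cyp51, Abca1 and some array values of other genes were added after their values were seen. Alternatives were fits of only the genotypes compared, a replicate block, each array left out, knockout 2 and heterozygote 1 left out together, quantile normalization, median centring, the dimmest 25% of probe sets left out, trend and robust moderation, the mean over probe sets of a gene, and an equal-variance test on linear intensities.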

Additional observations from a re-analysis of the deposited data

How the results depend on the processing

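None of the 29 genes was called in any comparison under any alternative run. The count of called probe sets for knockout minus wild type was 19, and it was 0 with only the genotypes compared, 30 without knockout 2 and heterozygote 1, 42 with the dimmest probe sets left out, 34 with trend and robust moderation and 3 in the equal-variance test on linear intensities. Leaving out 1 array gave 2 to 20, with the lowest count without knockout 1 or wild type 2, and more than 1.5 times fewer also without any heterozygote, wild type 1 or wild type 3. For knockout minus heterozygote the count was 6, and it was 0 with only the genotypes compared, 409 without knockout 2 and heterozygote 1, 26 after quantile normalization, 21 with the dimmest probe sets left out, 29 with trend and robust moderation and 1 in the equal-variance test. Leaving out 1 array gave 0 to 261, the highest without knockout 2, and the counts were 0 without knockout 1, heterozygote 2 or heterozygote 3, and 3 without knockout 3, wild type 2 or wild type 3. For heterozygote minus wild type limma called 0 in every fit and the equal-variance test 0, with 1443 probe sets at an unadjusted p under 0.05 in limma. The cause of these shifts was not tested.

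With the replicate number as a block, the counts were 3, 0 and 0 for knockout minus wild type, heterozygote minus wild type and knockout minus heterozygote, and no call on a cholesterol gene changed. Deviations of same-numbered knockout and wild-type arrays correlated at 0.334, 0.123 and -0.088, and not every array correlated best with its own number. With 3 arrays per genotype, such correlations cannot settle whether equal numbers share a litter, batch or day.

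With 1 array left out, the median of the 29 genes ranged from 0.037 to 0.161 for knockout minus wild type (lowest without knockout 2, highest without knockout 3), from 0.032 to 0.093 for heterozygote minus wild type (highest without heterozygote 3) and from -0.021 to 0.095 for knockout minus heterozygote (lowest without knockout 2, highest without knockout 3). Quantile normalization gave 0.070 for heterozygote minus wild type, and leaving out knockout 2 and heterozygote 1 gave -0.002 for knockout minus heterozygote.

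Single genes changed sign in 80 of the recomputed differences, all of them for genes that were not called, and kept it in 1231. Many of the 1231 could not have changed. Leaving out an array of the genotype not compared, for example, leaves the difference as it was. The 1231 therefore do not measure how stable the signs are. Quantile normalization turned Scap to 0.01 in knockout minus wild type and Srebf1 to 0.01 in heterozygote minus wild type, and median centring turned Mvd to -0.00073 and Nsdhl to -0.0019 in heterozygote minus wild type. The other changes of sign came with 1 array, or with knockout 2 and heterozygote 1 together, left out, and the lowest and highest log2 differences over these fits follow. For knockout minus wild type the ranges were Mvd -0.04 to 0.0035, Fdps -0.07 to 0.16, Sqle -0.16 to 0.01, Cyp51 -0.04 to 0.22, Sc4mol -0.11 to 0.17 and Nsdhl -0.10 to 0.12. In the same comparison they were Ebp -0.01 to 0.05, Insig1 -0.04 to 0.08, Stard4 -3.5e-06 to 0.11, Scap -0.06 to 0.04 and Npc1 -0.03 to 0.11. Heterozygote minus wild type gave Acat2 -0.0041 to 0.14, Pmvk -0.03 to 0.09, Mvd -0.04 to 0.08, Fdps -0.00093 to 0.11, Lss -0.04 to 0.12 and Nsdhl -0.10 to 0.08. Other ranges there were Hsd17b7 -0.11 to 0.01, Dhcr7 -0.0054 to 0.09, Srebf2 -0.0012 to 0.06, Scap -0.08 to 0.02, Soat1 -0.08 to 0.0058 and Abca1 -0.10 to 0.25. Lipe ranged there from -0.19 to 0.003. Knockout minus heterozygote gave Acat2 -0.11 to 0.04, Pmvk -0.02 to 0.09, Mvd -0.11 to 0.01, Idi1 -0.30 to 0.09, Fdps -0.11 to 0.12 and Fdft1 -0.02 to 0.08. Other ranges against heterozygotes were Lss -0.10 to 0.22, Tm7sf2 -0.01 to 0.37, Sc4mol -0.27 to 0.0084, Nsdhl -0.17 to 0.12, Sc5d -0.28 to 0.13 and Stard4 -0.08 to 0.02. Scap ranged there from -0.03 to 0.07.

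The correlation of Hmgcs1 with Srebf2 was 0.74 without the arrays farthest from the median of Hmgcs1, 0.73 with genotype means removed and 0.79 without knockout 2 and heterozygote 1, and did not pass in any of them. Without the farthest arrays, r of Hmgcs1 was -0.11 with Idi1, -0.12 with Cyp51 and -0.47 with Stard4, and with genotype means removed it was 0.10 with Sqle. The cause was not tested. Without knockout 2, a setting added after the values were seen, the median of the oocyte markers turned to 0.01 for knockout minus wild type, and that of the theca and steroidogenic markers to -0.09 for knockout minus heterozygote.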

Other observations

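Fatty acid synthesis and desaturation genes, which SREBPs are also known to drive, gave 0 calls among 15. Their median log2 difference was 0.183 for knockout minus wild type (12 of 15 higher), 0.017 for heterozygote minus wild type (8 of 15) and 0.142 for knockout minus heterozygote (14 of 15). With the array labelled knockout 2 left out, the medians were 0.04 for knockout minus wild type (9 of 15) and 0.01 for knockout minus heterozygote (8 of 15). Fads1, the delta-5 desaturase gene, read 2000, 2269 and 1841 in knockouts, 1687, 1699 and 1912 in heterozygotes, and 1794, 1598 and 1635 in wild type. All knockouts were above all wild types (0.28, SE 0.09, adjusted p = 0.317, limma). Fads2, the delta-6 desaturase gene, stood at 0.66 (SE 0.30, adjusted p = 0.482, limma) and Me1, the malic enzyme gene that supplies NADPH, at 0.20 (SE 0.09, adjusted p = 0.499, limma). In the absence of that array, Fads1 stood at 0.20, Fads2 at 0.34 and Me1 at 0.10.

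Chosen after its values were seen, Scd1, a stearoyl-CoA desaturase gene, read 173, 1027 and 168 in knockouts, 127, 170 and 307 in heterozygotes, and 162, 159 and 152 in wild type. The array labelled knockout 2 was the highest and heterozygote 3 the next, the same order as the summed theca and steroidogenic markers. What this order rests on was not tested.

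In the authors' deposited table of wild type over heterozygote, Mvk had a fold of 0.910 with p = 0.000987. In the authors' deposited table of wild type over knockout, Hmgcs1 had a fold of 0.816 with p = 0.0151, Soat1 0.832 with p = 0.021, Abca1 0.782 with p = 0.0344 and Npc2 0.869 with p = 0.0494. These folds run wild type over mutant, so a value below 1 means a higher mutant mean. In the authors' deposited table of heterozygote over knockout, Mvk had a fold of 1.14 with p = 0.00428, Soat1 0.813 with p = 0.00736 and Lipe 0.813 with p = 0.00957, where a value below 1 means a higher knockout mean. Srebf2 did not reach 0.05 in the authors' deposited table of wild type over knockout (fold 0.864, p = 0.0947). The p-values in the authors' deposited tables carry no adjustment. Of 28266 probe sets, 1902 had a p under 0.05 there in wild type over knockout. The counts were 1229 in wild type over heterozygote and 2059 in heterozygote over knockout. These values come from the same arrays as the limma results.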
